A study of Mus musculus with 2 samples.

Results

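The genes of the endoplasmic reticulum (ER) stress and amino acid stress response were examined in primary mouse hepatocytes given pregnenolone 16α-carbonitrile (PCN), a synthetic steroid that activates the rodent pregnane X receptor. The 38 genes were chosen by name, with earlier results of these data known. All 38 had a probe set among the 15644 named genes of the deposited array table. By role they were 5 stress sensors or factors directly under them, 16 genes of the ATF4/CHOP arm, 14 ER chaperones and folding factors, and 3 genes of ER degradation. The cells came from the liver of a C57BL/6 mouse, a male aged 9 weeks, and were cultured for 24 h. One group then received 10 µmol/l PCN and the other the solvent dimethyl sulfoxide (DMSO), each for 12 h. Each group was read on 1 array carrying the pooled RNA of 3 samples, which left 2 arrays, no replicates and no test. Every comparison below is between single arrays, and the treatment cannot be told apart from any other difference between these pools.

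Proteins that fold poorly in the ER are sensed by 3 membrane proteins, PERK, IRE1α and ATF6. PERK phosphorylates the translation factor eIF2α, as does GCN2, which senses uncharged tRNA when amino acids are short. Phosphorylated eIF2α slows general translation but favours that of ATF4, and ATF4 with CHOP switches on genes of amino acid synthesis and transport, redox balance and cell death. IRE1α splices the mRNA of XBP1 and ATF6 is cleaved to a free transcription factor, and both of these then raise chaperones and degradation factors of the ER. Hepatocytes secrete most plasma proteins and carry a large ER, so they express this folding machinery even when unstressed.

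Values are GCRMA intensities, a background-corrected array signal on a linear scale, and differences are log2(PCN) minus log2(DMSO). A gene counted as measured when it reached an intensity of 32 on at least 1 array, a floor chosen for dim signal, and 6449 named genes did. Over all probe sets, intensity had a median of 14.1 on the PCN array and 14.4 on the DMSO array. Bacterial and phage control probe sets, 38 of them above the floor on both arrays, had log2 differences with an SD of 0.10, which covers array-to-array spread and not differences between cultures. The 9 hepatocyte markers with a probe set were all measured, with a summed intensity of 113912 on the PCN array and 115448 on the DMSO array. Of the markers of other liver cells, 1 of 7 for stellate cells, 1 of 7 for Kupffer cells and leukocytes, 2 of 7 for endothelium and 2 of 5 for bile duct were measured. Their summed intensities on the PCN and DMSO arrays were 79.7 and 85.6 for stellate cells, 1692 and 1748 for Kupffer cells and leukocytes, 146 and 134 for endothelium, and 333 and 310 for bile duct. Probe sets share no common scale, so a sum is compared between the arrays only and gives no share of a cell type. Most of the sum for Kupffer cells and leukocytes was Cd68, named after its values were seen, with 1626 with PCN and 1690 with DMSO. Both measured bile duct markers, named after their values were seen, were past the size threshold used below, in opposite directions. Krt19 had 223 with PCN and 169 with DMSO, a log2 difference of 0.40, and Sox9 had 95.2 with PCN and 127 with DMSO, a difference of -0.42. Their part in the results below was not tested. In such bulk RNA, fewer cells of a type and less RNA per cell cannot be told apart.

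Little separated the arrays in these genes. Of the 38 members, 32 were measured, 16 of them higher and 16 lower on the PCN array, with a median log2 difference of 0.003 that turned negative, down to -0.04, under 5 of 7 other floors and scalings, against 57.6% higher and 42.4% lower over all measured genes and a median of 0.03. As a size threshold a log2 difference of 0.32 either way was used, which is 3.17 SD of the control probe sets. Those probe sets ran from -0.33 to 0.16, so the lowest of them was itself past 0.32. No member was higher by that much, against 5.27% of all measured genes. The 2 members lower by that much were Chac1 and Atf3, against 6.17% of all measured genes, and neither reached 1.5-fold, as 1.3% of all measured genes did on the lower and 0.636% on the higher side. After centring on the median difference, the shares past 0.32 were 4.03% on the higher and 7.64% on the lower side of all measured genes. At 1.1-fold, 4 members were higher, against 25.6% of all measured genes, and 3 were lower, against 18.8%. In 21 of the 32 members the difference was within 1 SD of the control probe sets, against 43.3% of all measured genes. Split by brightness, among genes with a mean intensity between 128 and 1024, 8 of 13 members were within it, against 41.5% of all measured genes. Above 1024 the count was 9 of 12 members, against 59.6%, and under 128 it was 4 of 7 members, against 38.3%.

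**Figure D1:**
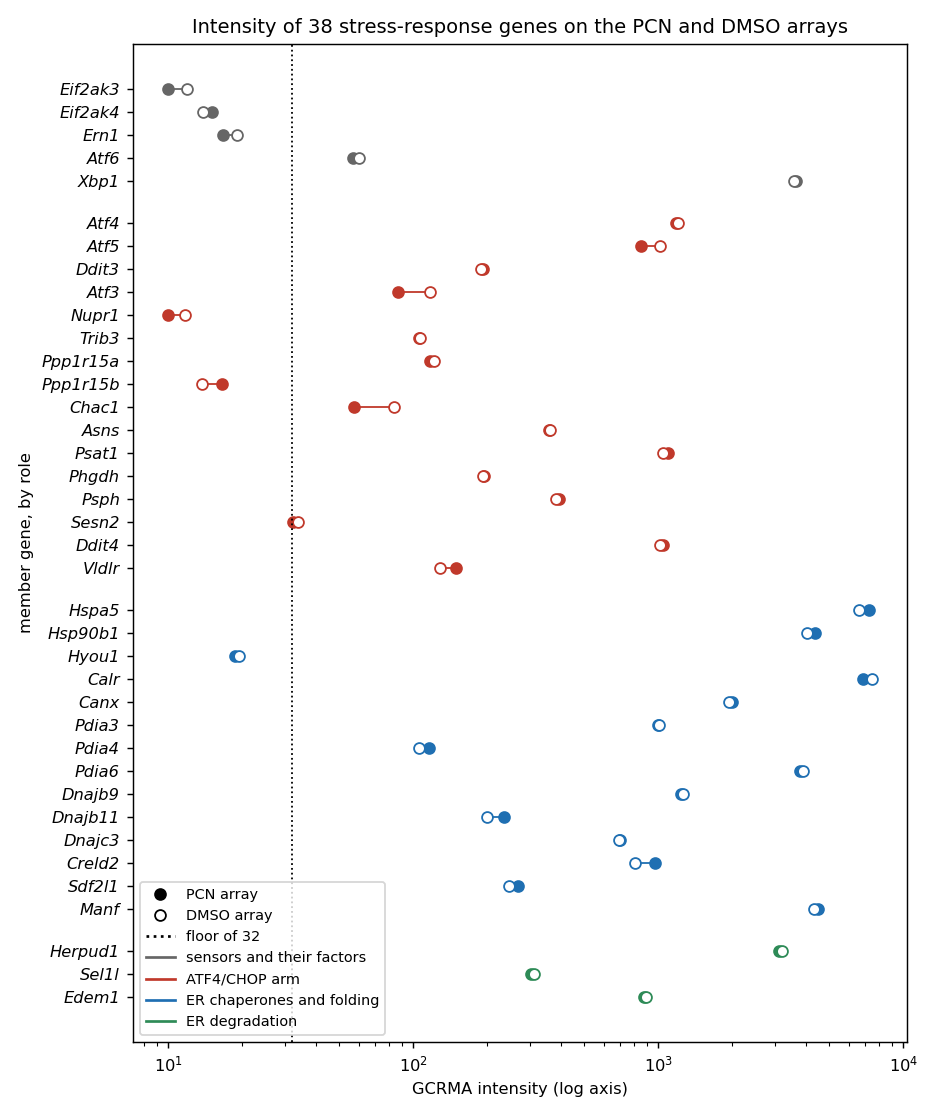
GCRMA intensity (log axis) of the 38 genes by role, with the PCN array as filled and the DMSO array as open circles and the floor of 32 as a dotted line. The widest gaps are at Chac1 (57.1 with PCN and 83.9 with DMSO) and Atf3 (86.5 with PCN and 117 with DMSO), and 6 genes lie left of the floor on both arrays.

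The sensors themselves were mostly too dim to read. Eif2ak3, which encodes PERK, had intensities of 10.0 with PCN and 12.0 with DMSO. Eif2ak4, which encodes GCN2, had 15.2 with PCN and 13.9 with DMSO. Ern1, which encodes IRE1α, had 16.8 with PCN and 19.2 with DMSO. All of these lie under the floor on both arrays, so no difference is given for them. Atf6, the membrane-bound factor that is freed by cleavage, had 56.6 with PCN and 60.2 with DMSO, a log2 difference of -0.09. Xbp1, the factor spliced by IRE1α, had 3656 with PCN and 3573 with DMSO, a difference of 0.03. Both measured genes lay within 1 SD of the control probe sets. The 1 intensity per gene given here does not separate spliced from unspliced Xbp1, nor does it report eIF2α phosphorylation, ATF6 cleavage or ATF4 translation.

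In the ATF4/CHOP arm, 14 of 16 genes were measured. With PCN 6 were higher and 8 lower, against 57.6% and 42.4% of all measured genes. The arm's median log2 difference was -0.02, against 0.03 over all measured genes. Past 0.32, 2 members were lower and 0 higher, against 6.17% and 5.27% of all measured genes. Relative to the median of all measured genes, 4 members lay above and 10 at or below it. Intensities ran from 32.5 to 1187 with PCN and from 34.0 to 1202 with DMSO. Of the 14, 10 were within 1 SD of the control probe sets, against 43.3% of all measured genes.

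Chac1, which encodes a γ-glutamylcyclotransferase that breaks down glutathione and is a common marker of ATF4 activity, had an intensity of 57.1 with PCN and 83.9 with DMSO. The difference was -0.55 on the log2 scale, or 1.47-fold lower, and 1.49% of all measured genes were as low or lower. Atf3, a stress-inducible factor of the bZIP family, had 86.5 with PCN and 117 with DMSO, a difference of -0.44 or 1.36-fold lower, and 2.93% of measured genes were as low or lower. These were the only members past 0.32 in either direction. Both are dim, and over measured genes with a mean intensity under 128 the log2 differences had an SD of 0.25, against 0.15 above 1024. With a floor at an intensity of 64 in place of 32, the PCN value of Chac1 is raised to that floor and its difference shrinks to -0.39.

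Atf5, a bZIP factor whose translation is also favoured when eIF2α is phosphorylated, had 854 with PCN and 1019 with DMSO, a difference of -0.25. Vldlr, a lipoprotein receptor gene that ATF4 raises in stressed liver, was the highest of the arm, with 150 on the PCN array and 128 on the DMSO array, a difference of 0.23. As high or higher were 12.6% of measured genes, and as low as Atf5 or lower were 9.32%. So the 4 genes of the arm outside the control spread did not share a direction.

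The factors at the centre of the arm barely differed between the arrays. Atf4 itself had intensities of 1187 with PCN and 1202 with DMSO, a log2 difference of -0.02. Ddit3, which encodes CHOP, had 193 with PCN and 190 with DMSO, a difference of 0.02 that turned to -0.003 with quantile normalization, to -0.01 with median centring and to -0.03 with the trend on level removed. Trib3, a pseudokinase that CHOP raises and that feeds back on ATF4 and CHOP, had 105 with PCN and 107 with DMSO, a difference of -0.02. The values of these 3 genes were thus almost the same on both arrays, unlike those of Chac1 and Atf3. Ppp1r15a, which encodes GADD34, the inducible subunit that directs a phosphatase to eIF2α, had 118 with PCN and 121 with DMSO. Its constitutive relative Ppp1r15b was under the floor, with 16.6 with PCN and 13.8 with DMSO, as was Nupr1, a stress-inducible nuclear protein, with 9.98 with PCN and 11.8 with DMSO.

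Amino acid synthesis genes of the arm were also level. Asns, the asparagine synthetase gene and a classical target of the amino acid response, had 358 with PCN and 361 with DMSO, a log2 difference of -0.01. The serine pathway, which runs from Phgdh through Psat1 to Psph, gave 196 with PCN and 193 with DMSO for Phgdh, a difference of 0.02 that turned to -0.01 with median centring and -0.03 with the trend on level removed. Psat1 had 1095 with PCN and 1045 with DMSO, a difference of 0.07. Psph had 395 with PCN and 384 with DMSO, a difference of 0.04. All 4 enzymes lay within 1 SD of the control probe sets. The same held for both inhibitors of the growth kinase mTORC1 in the arm. Ddit4, also called REDD1, had 1046 with PCN and 1016 with DMSO, a difference of 0.04, and Sesn2, a leucine sensor, had 32.5 with PCN and 34.0 with DMSO, a difference of -0.07 just above the floor.

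**Figure D2:**
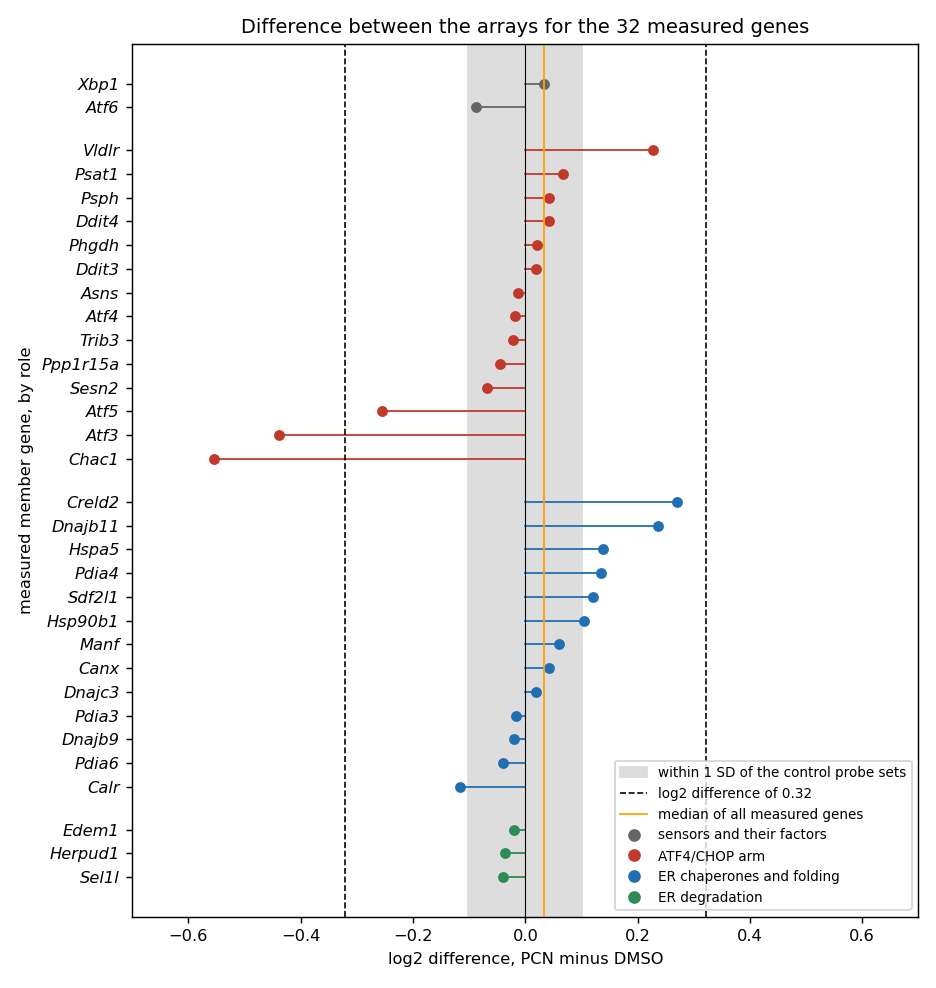
Log2 difference (PCN minus DMSO) of the 32 measured genes by role, with 1 SD of the control probe sets in grey, a difference of 0.32 either way as dashed lines and the median of all measured genes in orange. Chac1 (-0.55) and Atf3 (-0.44) are the points beyond the dashed lines, and 21 genes lie inside the grey band.

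ATF4 and its partners act through a composite element called CARE. Promoter windows of RefSeq (GRCm38.p6), which run from 250 bases before to 50 after a gene's start, were given for 34 of the 38 members. The core TGATGNAA was searched on both strands, and 3.97% of all 32851 windows held it, in 1219 of 27025 genes. It was found in 6 of the 15 ATF4/CHOP genes with a window (Asns, Atf3, Chac1, Nupr1, Trib3 and Vldlr), in none of the 12 chaperones with a window, and in Herpud1. The stretches around the match are shown for the 4 measured genes of the arm whose match lies before the start, because they include both of its lowest genes and its highest, with the core in capitals, read along the gene's strand. They are chr2:119351024-119351081 (plus strand) for Chac1, chr1:191183411-191183468 (minus strand) for Atf3, chr6:7693210-7693257 (minus strand) for Asns and chr19:27216795-27216852 (plus strand) for Vldlr.
Chac1: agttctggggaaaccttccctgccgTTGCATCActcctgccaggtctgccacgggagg
Atf3: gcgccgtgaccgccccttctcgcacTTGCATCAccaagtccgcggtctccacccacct
Asns: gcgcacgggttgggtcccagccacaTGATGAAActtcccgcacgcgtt
Vldlr: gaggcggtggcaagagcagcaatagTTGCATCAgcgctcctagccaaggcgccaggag
The capitals of Chac1, Atf3 and Vldlr are the same letters, the core read on the opposite strand, although Chac1 and Atf3 were lower and Vldlr was higher with PCN. In Trib3 the match lay after the start, at bases 15 to 22. Of the 7 members with a match, 6 were measured. Among these, 1 was higher and 5 lower, against 57.6% and 42.4% of all measured genes. The differences of the 6 ran from -0.55 to 0.23 with a median of -0.03. Asns, Trib3 and Herpud1, all counted as lower, lay within 1 SD of the control probe sets. A match describes the letters only and does not show that a factor binds there. The members were chosen as genes of this response, so the shares of matches here and below are no independent finding.

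The ER chaperones and folding factors showed small differences. Of 14 genes 13 were measured, 9 higher and 4 lower with PCN, against 57.6% higher over all measured genes, with a median log2 difference of 0.06. None passed 0.32 in either direction, and 8 lay above the median of all measured genes and 5 at or below it. Their differences ran from -0.12 to 0.27, and 6 of the 13 were within 1 SD of the control probe sets. Intensities ran from 116 to 7281 with PCN and from 106 to 7452 with DMSO. Intensities of different probe sets are not on a common scale, so these ranges and those of the ATF4/CHOP arm are not set against each other. The median of the ATF4/CHOP arm minus that of the chaperones was -0.07, with no test of this difference. It stayed between -0.10 and -0.06 under other settings.

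Creld2, an ER-resident folding factor raised by ER stress, had the largest difference of the group, with 970 on the PCN array and 805 on the DMSO array. That is 0.27 on the log2 scale or 1.21-fold higher, and 8.57% of measured genes were as high or higher. Dnajb11, which encodes the HSP40 co-chaperone ERdj3, had 235 with PCN and 200 with DMSO, a difference of 0.24, and 11.5% of measured genes were as high or higher. Both differences are well inside the range of ordinary genes on these arrays. Sdf2l1, a protein that works with ERdj3, had 269 with PCN and 247 with DMSO, a difference of 0.12.

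Hspa5 encodes BiP, the main HSP70 chaperone of the ER and the standard readout of ER stress. It had an intensity of 7281 with PCN and 6619 with DMSO, a difference of 0.14, and 25.6% of measured genes were as high or higher. Bright genes spread less, and over measured genes with a mean intensity above 1024 the 75th percentile was 0.10, under the value of Hspa5. Hsp90b1, which encodes the HSP90 of the ER, GRP94, had 4350 with PCN and 4048 with DMSO, a difference of 0.10. Both were higher with PCN by about the spread of the control probe sets. Hyou1, a nucleotide exchange factor for BiP, was under the floor with 18.8 with PCN and 19.4 with DMSO. Dnajb9, which encodes the co-chaperone ERdj4 and is a target of XBP1, had 1245 with PCN and 1262 with DMSO, a difference of -0.02. Dnajc3, another BiP co-chaperone, had 701 with PCN and 693 with DMSO, a difference of 0.02 that turned to -0.02 with quantile normalization or removal of the trend on level and to -0.01 with median centring. Both of these lay within 1 SD of the control probe sets.

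The lectin chaperones Calr and Canx, which hold glycoproteins while they fold, differed in sign. Calr, the gene of the soluble calreticulin, had 6876 with PCN and 7452 with DMSO, the lowest value of the group at -0.12. That is under the 25th percentile of -0.05 over measured genes with a mean intensity above 1024. Canx, the gene of the membrane-bound calnexin, had 1996 with PCN and 1938 with DMSO, a difference of 0.04. The disulfide isomerases, which form and reshuffle disulfide bonds, were divided as well. Pdia4 had 116 with PCN and 106 with DMSO, a difference of 0.13. Pdia3, the partner of calreticulin and calnexin, had 994 with PCN and 1005 with DMSO, a difference of -0.02, and Pdia6 had 3808 with PCN and 3916 with DMSO, a difference of -0.04. Manf, a small ER protein that is secreted under stress, had 4503 with PCN and 4321 with DMSO, a difference of 0.06. Canx, Pdia3, Pdia6 and Manf lay within 1 SD of the control probe sets, so their signs carry little weight.

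**Figure D3:**
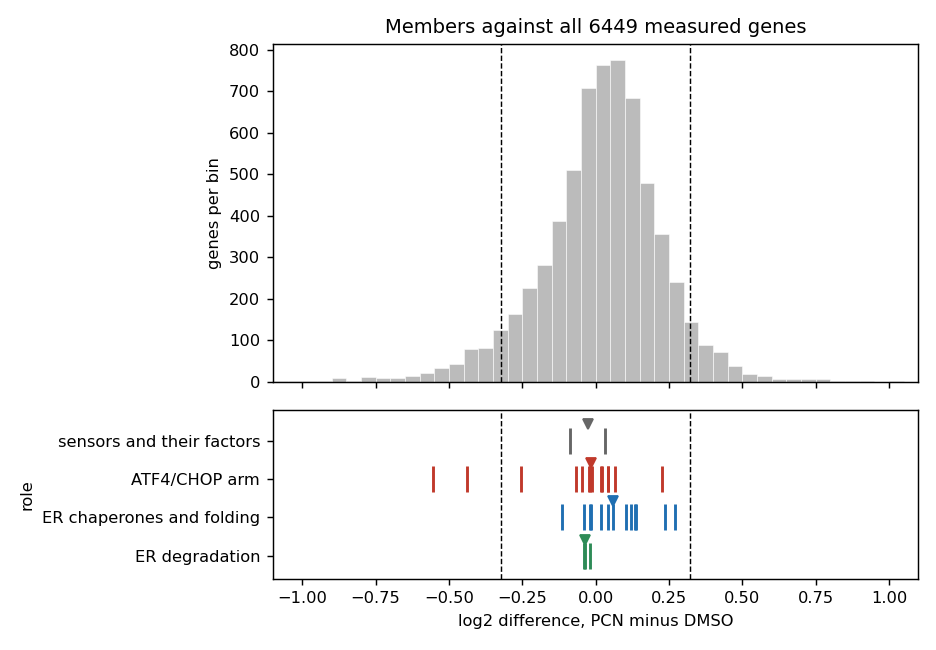
Top, number of measured genes per bin of log2 difference (PCN minus DMSO) over all measured genes; bottom, each measured member as a tick by role, with the median as a triangle and a difference of 0.32 either way as dashed lines. Of the 32 ticks, 25 lie between the 25th and 75th percentiles of all measured genes and 2, Chac1 and Atf3, lie past the dashed lines, and the medians run from -0.04 for ER degradation to 0.06 for the chaperones.

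Many chaperone genes share the ER stress response element (ERSE), to which ATF6 and XBP1 bind together with the factor NF-Y. It was searched on both strands as CCAAT, 9 bases of any kind and CCACG. It was found in 0.119% of all windows (37 of 27025 genes) and in 7 of the 12 chaperone genes with a window. None of the 15 ATF4/CHOP genes, the 3 ER degradation genes or the 4 sensor genes with a window held it. A shorter form, ERSE-II (ATTGG, 1 base of any kind and CCACG), was present in 0.0365% of all windows (12 of 27025 genes). Among the members it was in Dnajb11, at bases 8 to 18 after the start, and in Herpud1. The XBP1-type element UPRE, searched as TGACGTGG, was in 0.676% of all windows and in no member's window. No match overlapped another. The stretches below are shown because these genes share the element and still differed in direction, with the element in capitals. Of these genes, Canx, Dnajc3 and Pdia6 lay within 1 SD of the control probe sets. They are chr15:88819495-88819563 (plus strand) for Creld2, chr2:34772000-34772068 (plus strand) for Hspa5, chr11:50325775-50325843 (minus strand) for Canx, chr14:118937802-118937870 (plus strand) for Dnajc3, chr12:17266466-17266534 (plus strand) for Pdia6 and chr8:84847050-84847118 (minus strand) for Calr.
Creld2: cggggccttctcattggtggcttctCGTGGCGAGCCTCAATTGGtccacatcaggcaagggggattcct
Hspa5: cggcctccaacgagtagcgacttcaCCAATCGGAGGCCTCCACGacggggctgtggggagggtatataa
Canx: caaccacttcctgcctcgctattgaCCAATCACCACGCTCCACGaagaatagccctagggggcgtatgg
Dnajc3: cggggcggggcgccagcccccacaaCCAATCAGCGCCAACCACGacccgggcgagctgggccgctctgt
Pdia6: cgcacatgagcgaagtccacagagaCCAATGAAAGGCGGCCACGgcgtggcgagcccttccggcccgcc
Calr: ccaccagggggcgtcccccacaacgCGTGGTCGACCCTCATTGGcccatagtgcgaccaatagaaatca
Hsp90b1, the remaining gene of the 7, held the element at both -212 to -194 and -107 to -89. In Hspa5 the element lay at -65 to -47 and in Calr at -162 to -144. All 7 genes were measured, 5 higher and 2 lower with PCN, against 57.6% and 42.4% of all measured genes. The 7 ran from -0.12 for Calr to 0.27 for Creld2. Their median was 0.04, against 0.03 over all measured genes. The count of higher genes is smaller by 1 under quantile normalization, median centring or removal of the trend on level, where Dnajc3 turns.

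**Figure D4:**
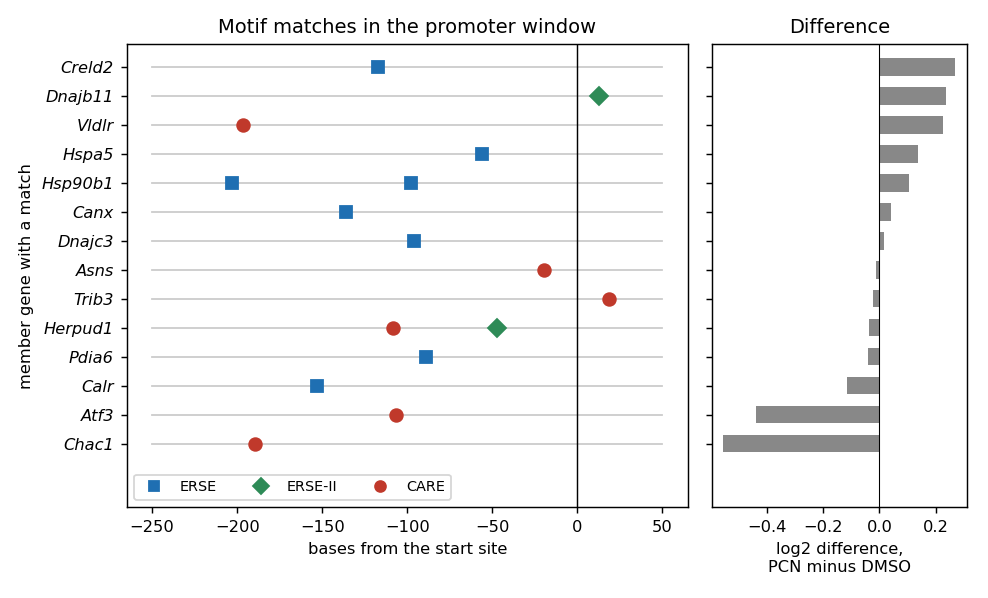
Left, matches of the elements ERSE, ERSE-II and CARE by distance from the start site (bases) in the 14 measured members with a match; right, each gene's log2 difference, PCN minus DMSO, as bars from 0. Genes with ERSE run from 0.27 (Creld2) to -0.12 (Calr), and genes with CARE from 0.23 (Vldlr) to -0.55 (Chac1).

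The 3 ER degradation genes were nearly level. Herpud1, a membrane protein that gathers the degradation complex, had 3124 with PCN and 3202 with DMSO, a log2 difference of -0.04. Sel1l, the adaptor of the ubiquitin ligase HRD1, had 304 with PCN and 312 with DMSO, a difference of -0.04. Edem1, a lectin-like protein that hands misfolded glycoproteins to degradation, had 878 with PCN and 890 with DMSO, a difference of -0.02. All of them were slightly lower with PCN and within 1 SD of the control probe sets. Herpud1 was the only member whose window held elements of both kinds, CARE at -112 to -105 and ERSE-II at -52 to -42, shown here in capitals along the plus strand of chr8:94386292-94386412.
Herpud1: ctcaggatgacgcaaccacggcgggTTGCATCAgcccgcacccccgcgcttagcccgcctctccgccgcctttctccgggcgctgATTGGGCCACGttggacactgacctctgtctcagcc

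Other genes of these pathways were taken from lists by role. Within 1 SD of the control probe sets lay 5 of 14 other ATF4 targets and 7 of 18 aminoacyl-tRNA synthetases, against 43.3% of all measured genes. For the lists described further below, 13 of 24 folding genes, 10 of 16 degradation genes, 8 of 14 translocon genes and 7 of 13 sensors were within it. Of the 14 measured ATF4 targets outside the members, as many were higher (7) as lower (7), and the median log2 difference of -0.009 turned positive, up to 0.02, with a floor of 4 or 6 on the log2 scale, without a floor and with quantile normalization. Gpt2, a mitochondrial alanine aminotransferase, had 1860 with PCN and 2952 with DMSO, a difference of -0.67 or 1.59-fold lower. Slc6a9, a glycine transporter, had 37.5 with PCN and 53.1 with DMSO, a difference of -0.50 or 1.42-fold lower. These were the only genes of that list past 0.32, against 6.17% lower and 5.27% higher by that much over all measured genes. As low as Gpt2 or lower were 0.899% of measured genes, and as low as Slc6a9 or lower were 1.97%. Slc6a9 is dim and is not measured with a floor of 6 on the log2 scale. Over measured genes with a mean intensity under 128, the log2 differences had an SD of 0.25. Of 18 measured aminoacyl-tRNA synthetases, several of which ATF4 also raises, 15 were higher and 3 lower, and 13 lay above the median of all measured genes and 5 at or below it; their median was 0.11 and none past 0.32. The largest were Cars, with 50.6 on the PCN array and 43.4 on the DMSO array (0.22), and Qars, with 939 on the PCN array and 811 on the DMSO array (0.21).

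On the ER side, 11 of 24 other folding genes were higher and 13 lower, and the list median was -0.007. Ero1a, the oxidase that recharges disulfide isomerases, had 1325 with PCN and 1055 with DMSO, a log2 difference of 0.33, which was the list's 1 gene past the threshold and did not pass it under quantile normalization, median centring or removal of the trend on level. Fkbp11, a prolyl isomerase of secretory cells, had 454 with PCN and 365 with DMSO, a difference of 0.31. Other ER degradation genes were higher in 11 of 16, with a median of 0.05, and 9 lay above the median of all measured genes and 7 at or below it. Among them, Syvn1, which encodes HRD1, had 238 with PCN and 206 with DMSO (0.21), and Faf2 had 58.3 with PCN and 67.1 with DMSO (-0.20).

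Genes of the translocon and signal peptidase, which bring new proteins into the ER, were higher in 12 of 14, with a median of 0.08 and none past 0.32, and 9 lay above the median of all measured genes and 5 at or below it. Sec11c, a catalytic subunit of signal peptidase, had 361 with PCN and 293 with DMSO (0.30), and Spcs3, another subunit, had 3052 with PCN and 2605 with DMSO (0.23). The 13 other sensors, initiation factors and membrane-bound factors divided into 7 higher and 6 lower. Their median was 0.02, which turned to -0.01 under quantile normalization, median centring and removal of the trend on level. Creb3l3, a membrane-bound factor of hepatocytes related to ATF6, had 466 with PCN and 545 with DMSO (-0.22), and Eif2b3, a subunit of the exchange factor that phosphorylated eIF2α blocks, had 661 with PCN and 591 with DMSO (0.16). Among the hepatocyte markers, 8 of 9 were lower with PCN, against 42.4% of all measured genes. Their median was -0.03, against 0.03 over all measured genes, and 8 lay at or below the latter. The lowest, named after their values were seen, were Asgr1 at -0.44 and Hnf4a at -0.21. Asgr1 was past 0.32, as were 6.17% of all measured genes on the lower side. The part of these markers in the values of Chac1, Atf3 and Gpt2 was not tested.

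**Figure D5:**
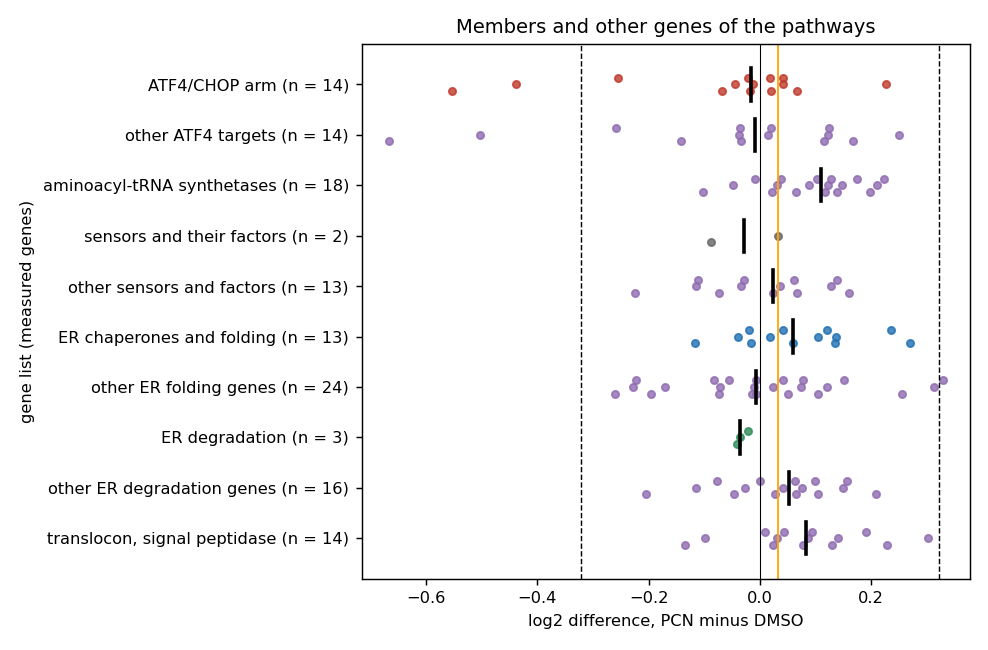
Log2 difference (PCN minus DMSO) of each measured gene as a point, for the members by role and for other genes of the pathways in purple, with list medians as black bars, the median of all measured genes in orange and a difference of 0.32 either way as dashed lines. Points past the lower dashed line are Chac1, Atf3, Gpt2 and Slc6a9, and list medians run from -0.04 (ER degradation) to 0.11 (aminoacyl-tRNA synthetases).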

How the data were processed

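Per the submitters' processing notes, the arrays were processed with GCRMA 2.2.0, and the deposited intensities are on a linear scale (1.13 to 28482). For the probe set definition and genome build, the sources used here give nothing. Each named gene had 1 probe set. Per the labels' protocols, RNA of 3 samples (5 µg of total RNA) was pooled for the cRNA of each array. Their log2 was taken here (pandas 2.3.3 and numpy 2.4.6 under Python 3.11.15). Values under the floor of 5 (log2) were raised to it, and genes under it on both arrays counted as not measured. A group of 1 array allows neither a test nor a standard error. The size threshold was a log2 difference of 0.32. The members and lists were chosen with earlier results of these data known. All members are named, with the 2 measured genes of largest difference in each other pathway list; cell type markers are given by count, except those marked as named after their values were seen. Older symbols were matched through RefSeq synonyms. Promoter sequences are those of RefSeq, GRCm38.p6. A simulation checked only that the code finds planted changes larger than the threshold in genes well above the floor. Its noise was smaller than the control spread and it held no difference between cultures, so it does not show how reliable the differences here are. The number of arrays limits precision.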

Additional observations from a re-analysis of the deposited data

How the results depend on the processing

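The alternatives were a floor of 4 or 6 (log2), values as deposited, no floor, quantile normalization, median centring, removal of a loess trend on level (statsmodels 0.14.6, fraction 0.3) and thresholds of 1.5-fold or 1.1-fold. Of the member differences recomputed under them, 221 stayed within 1 SD of the control probe sets of the reported value, and the exception was Chac1 with a floor of 6. Most of these could not move, because a floor leaves a gene that is above it on both arrays unchanged. Median centring shifts every gene by the same 0.03. Only quantile normalization and removal of the loess trend could shift genes by different amounts, so the count is no measure of robustness. The SD of the control probe sets is the spread of single probe sets and is no yardstick for list medians, which are given by their range. The median of all members ran from -0.04 to 0.02, that of the ATF4/CHOP arm from -0.05 to -0.01, that of the chaperones from 0.03 to 0.06 and that of the ER degradation genes from -0.07 to -0.04. The median of the 2 measured sensors ran from -0.09 to 0.03, the highest with a floor of 6. Of the counts past the threshold, 173 stayed within 1.5 times and 25 did not. With a floor of 4 or no floor, 1 other ATF4 target and 1 other sensor were higher, in place of 0; with a floor of 6, 1 other ATF4 target was lower, in place of 2. Under the 3 scalings, 0 other folding genes were higher, in place of 1. At 1.5-fold, 0 members and 0 genes of the ATF4/CHOP arm were lower, in place of 2, 1 other ATF4 target was lower, in place of 2, and 0 other folding genes were higher. At 1.1-fold (background 25.6% higher and 18.8% lower), 4 members were higher, in place of 0, with 1 in the ATF4/CHOP arm and 3 chaperones. In the other lists, higher and lower at 1.1-fold were 2 and 4 ATF4 targets, 6 and 0 synthetases, 4 and 5 folding genes, 3 and 1 degradation genes, 4 and 0 translocon genes, and 2 and 1 sensors. No paired analysis was possible because there was only 1 array to a group, and no replicate could be left out. Signal near background limits the 6 members under the floor and dim ones such as Chac1 and Sesn2, and a difference between cultures cannot be estimated from these arrays.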
